A study of Bos taurus with 24 samples.

Results

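The data described here are the RNA levels of 9 genes of NF-kB signalling through coculture and differentiation of bovine muscle satellite cells: CXCL5, CFB, SOD2, TNFAIP3, ICAM1, NFKBIA, NFKB1, NFKB2 and RELA. They were picked by symbol, with earlier results of these data known, from the 11937 genes of the deposited count table, and all 9 were listed there. Satellite cells are the stem cells of skeletal muscle. Here a mix of 3 satellite cell lines from the longissimus dorsi muscle (wild type, passage 3) was grown either in coculture with fibroblasts (passage 10), in plates whose inserts have pores of 0.4 µm, or alone in monoculture. The groups were coculture and monoculture in proliferation, at the end of 5 days in medium with 20% fetal bovine serum, and coculture and monoculture at 24 h and at 72 h after a change to medium with 10% horse serum, which starts differentiation. Each of the 6 groups had 4 RNA sequencing libraries. Each library also carries a label code, 1 for monoculture at 24 h and 72 h and 2 for all others. At those times code and culture cannot be told apart, and the code is not interpreted here. The lines were pooled, so differences between them cannot be seen, and whether an empty insert stood in the monoculture wells is not recorded. The labels also do not state that replicates came from separate cultures, so the p-values measure only the spread between these libraries, which may be technical.

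NF-kB is a family of paired transcription factors that rest in the cytoplasm, bound by inhibitor proteins of the IkB group. Signals from tumour necrosis factor, interleukin 1 and Toll-like receptors switch on a kinase complex that marks IkB for destruction, and the freed dimers enter the nucleus and switch on inflammatory genes. Among those genes are the pathway's own brakes, so a response normally limits itself. In cultured mouse myoblasts NF-kB activity is known to hold back differentiation. The 9 genes cover the factor itself (RELA, NFKB1, NFKB2), the brakes (NFKBIA, TNFAIP3) and targets with an effect of their own (CXCL5, CFB, SOD2, ICAM1). RNA was measured, not the location or activity of the NF-kB proteins.

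Library totals were 11.54 to 34.96 M counts. Levels are given as CPM, counts brought to a common library total with TMM factors, and a gene was called at an adjusted p under 0.05 over all genes in edgeR's quasi-likelihood test. The share of counts in nuclear ribosomal RNA was above 1.5% in 4 libraries. Replicate 2 of coculture at 24 h had 4.07%, replicate 1 of coculture at 72 h had 2.24%, and replicates 3 and 4 of monoculture at 72 h had 2.14% and 1.76%. By their library names, all 4 coculture libraries of 72 h and replicates 3 and 4 of coculture at 24 h ran in lane 7 and all others in lane 6, so at 72 h lane and culture cannot be told apart except through the split 24 h group. Of 10 myogenic marker genes only DES and ITGA7 were among the genes listed; PAX7, MYF5, MYOD1 and MYOG were not, in a table where every gene had at least 6 counts in every library used. The labelled cell type could therefore not be checked by its defining genes. The fibroblast list (COL1A1, COL3A1, DCN, LUM, PDGFRA, PDGFRB and THY1 of 8 genes) was high in both cultures. In bulk RNA, more cells of a type and more RNA per cell cannot be told apart.

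The table places CXCL5 (ENSBTAG00000009812) on chromosome 6 at 88896989 to 88899149, and NFKB1 (ENSBTAG00000020270) on the same chromosome at 22205847 to 22328613. SOD2 (ENSBTAG00000006523, 95954731 to 95966326) and TNFAIP3 (ENSBTAG00000000436, 75741106 to 75756051) lie on chromosome 9. CFB (ENSBTAG00000046158) is on chromosome 23 at 27415355 to 27421377, ICAM1 (ENSBTAG00000010303) on chromosome 7 at 14813530 to 14824410, and NFKBIA (ENSBTAG00000016683) on chromosome 21 at 45639617 to 45643009. NFKB2 (ENSBTAG00000006017) is on chromosome 26 at 23019572 to 23026938 and RELA (ENSBTAG00000013895) on chromosome 29 at 43830896 to 43839652. All 9 are annotated as protein coding; neither the labels nor the table name the genome build. NFKB2 overlaps PSD by 753 bases, and PSD averaged 4.25 CPM. NELFE ends at 27415345, just short of CFB and without overlap, and averaged 42.6 CPM. Strand use in counting is not given. CXCL5 belongs to a family of similar chemokines, of which CXCL3 is also listed on chromosome 6, so the split of reads between relatives is uncertain. Counts per library ran from 1104 to 11423 for CXCL5, but from 10 to 1574 for CFB and from 52 to 566 for TNFAIP3, whose low values carry more counting error.

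At 72 h coculture stood far above monoculture in 3 of the 4 targets and 1 of the 2 brakes. In proliferation these genes had been near or below monoculture. SOD2 was 6.74-fold, CFB 6.24-fold, CXCL5 5.84-fold and TNFAIP3 3.07-fold higher in coculture at 72 h. These were the 5th, 8th, 9th and 38th largest fold changes toward coculture among 11937 genes. The ranks describe the genes and are not a test, since the genes were chosen with earlier results known. NFKB1, NFKB2 and RELA were also higher, by 1.33-fold at most. ICAM1 and NFKBIA were not called. In proliferation, CXCL5 was 2.01-fold lower in coculture, and at 24 h ICAM1 was 2.28-fold lower.

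**Figure D1:**
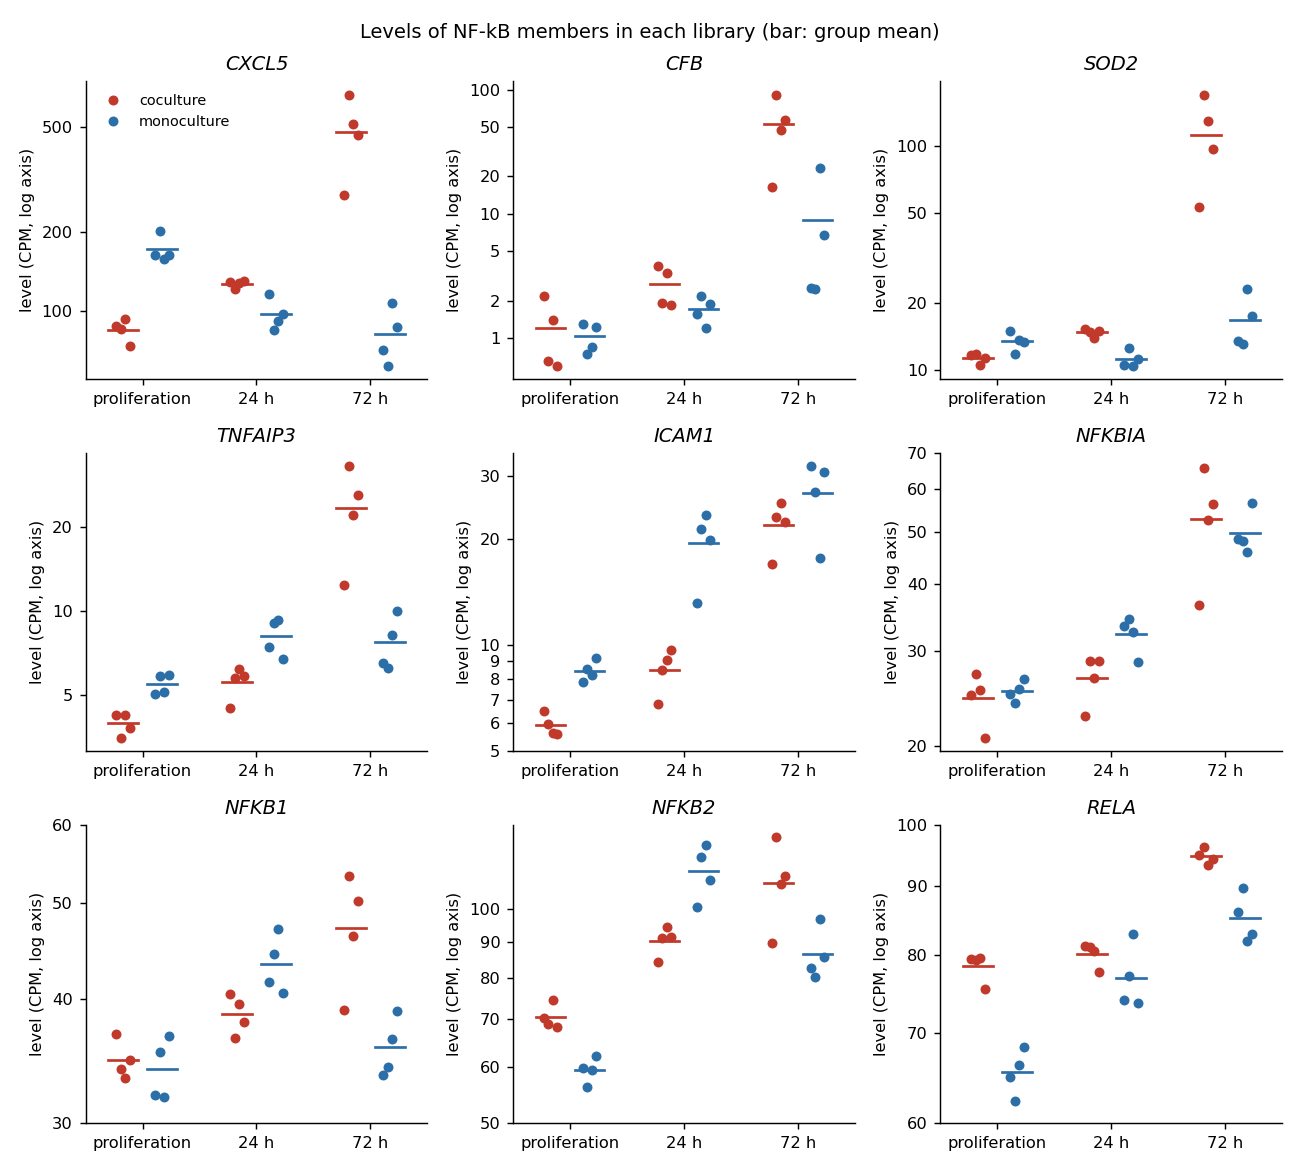
Levels of the 9 genes in each library, in CPM on a log axis, at proliferation, 24 h and 72 h; red points are coculture libraries, blue points monoculture libraries, and the bars are group means of 4. For CXCL5, SOD2 and TNFAIP3 all 4 coculture libraries of 72 h lie above all 4 monoculture libraries, whereas for CFB coculture replicate 1 (16.5 CPM) lies below monoculture replicate 3 (23.6 CPM).

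CXCL5 encodes a chemokine that draws neutrophils. In proliferation it was at 87.8, 86.0, 93.7 and 73.7 CPM in the 4 coculture libraries, against 163, 202, 158 and 163 CPM in monoculture. At 24 h it was at 130, 121, 128 and 130 CPM in coculture, against 116, 85.4, 91.7 and 97.8 CPM in monoculture. At 72 h it was at 277, 662, 514 and 464 CPM in coculture, against 71.7, 62.3, 108 and 87.3 CPM in monoculture. The groups did not overlap at any time, but their order turned: coculture was the lower group in proliferation and the higher one later. The log2 fold change was -1.01 ± 0.16 in proliferation (SE; edgeR adjusted p = 3.385e-06), 0.38 ± 0.16 at 24 h (adjusted p = 0.07816) and 2.55 ± 0.16 at 72 h (adjusted p = 9.546e-14). The 24 h difference passed the threshold in 3 of 16 alternative settings, among them without monoculture replicate 1 (0.48, adjusted p = 0.0431). Within coculture CXCL5 rose at each step, by 0.58 on the log2 scale at 24 h over proliferation and by 1.91 at 72 h over 24 h. In monoculture it fell by 0.81 over the first 24 h and then differed by -0.25 (adjusted p = 0.1938), a difference that passed without monoculture 72 h replicate 3 (-0.41, adjusted p = 0.03382).

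CFB encodes complement factor B, the protease of the alternative complement pathway. Its level was low before 72 h: 2.16, 0.646, 1.39 and 0.596 CPM in coculture and 1.30, 0.748, 0.844 and 1.23 CPM in monoculture in proliferation. At 24 h it was at 3.83, 1.91, 3.32 and 1.85 CPM in coculture, against 1.57, 2.17, 1.21 and 1.88 CPM in monoculture. At 72 h it reached 16.5, 91.2, 47.1 and 56.5 CPM in coculture, against 2.51, 2.48, 23.6 and 6.80 CPM in monoculture. The 72 h groups overlapped through replicate 1 of coculture and replicate 3 of monoculture, both among the 4 with the most ribosomal RNA. The log2 fold change at 72 h was 2.64 ± 0.41 (edgeR adjusted p = 2.743e-06), and 4.69 ± 0.27 without those 4 libraries (adjusted p = 1.82e-15). The latter fit kept only replicates 1 and 2 of monoculture at 72 h, its lowest for CFB, and dropped the lowest coculture library. At the earlier times no difference was called (0.06 ± 1.04 and 0.61 ± 0.77). Within coculture CFB rose by 4.31 on the log2 scale at 72 h over 24 h. Its rise of 2.28 in monoculture (adjusted p = 0.003146) rested on replicate 3: without it the rise was 1.08 (adjusted p = 0.1279).

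SOD2 encodes the manganese superoxide dismutase of mitochondria, which detoxifies superoxide. It was at 11.7, 11.8, 10.5 and 11.4 CPM in coculture and 15.03, 11.8, 13.7 and 13.4 CPM in monoculture in proliferation. At 24 h it was at 15.3, 14.8, 13.98 and 14.9 CPM in coculture, against 10.6, 12.5, 10.5 and 11.2 CPM in monoculture. At 72 h the coculture libraries held 53.1, 169, 129 and 96.4 CPM, against 13.4, 13.1, 23.1 and 17.4 CPM in monoculture. The lowest coculture library of 72 h was thus above the highest monoculture library of any time. The log2 fold change at 72 h was 2.75 ± 0.20 (edgeR adjusted p = 1.711e-12), against -0.23 ± 0.25 in proliferation and 0.39 ± 0.25 at 24 h (adjusted p = 0.265), though the 24 h groups did not overlap. Monoculture at 72 h was 0.55 above monoculture at 24 h on the log2 scale (adjusted p = 0.05752), and this passed without monoculture 72 h replicate 1 (0.66, adjusted p = 0.04003) or replicate 2 (0.66, adjusted p = 0.03627).

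ICAM1, an adhesion molecule that leukocyte integrins bind, had its group mean below monoculture at all 3 times. In proliferation it was at 6.48, 5.95, 5.63 and 5.60 CPM in coculture, against 7.82, 8.53, 8.23 and 9.17 CPM in monoculture. At 24 h the coculture libraries held 6.82, 8.48, 9.05 and 9.68 CPM, against 13.1, 21.2, 23.3 and 19.8 CPM in monoculture. At 72 h the levels were 16.9, 23.0, 25.2 and 22.2 CPM in coculture, against 32.1, 27.1, 17.6 and 31.0 CPM in monoculture. Coculture was the lower group without overlap at the first 2 times, and the groups overlapped at 72 h. The log2 fold change was -0.51 ± 0.19 in proliferation (edgeR adjusted p = 0.01995), -1.19 ± 0.16 at 24 h (adjusted p = 1.256e-06) and -0.31 ± 0.14 at 72 h (adjusted p = 0.06533). The 24 h call held in all 16 alternative settings, with an adjusted p of 2.787e-05 at most. The proliferation call was lost without monoculture replicate 4 (-0.47, adjusted p = 0.0557), and the 72 h difference passed without monoculture replicate 3 (-0.46, adjusted p = 0.00185) or without coculture replicate 3 (-0.38, adjusted p = 0.03885). ICAM1 rose in both cultures over time: by 0.53 on the log2 scale at 24 h and a further 1.35 at 72 h in coculture, and by 1.21 and then 0.47 in monoculture. The first coculture rise (adjusted p = 0.02276) was lost without coculture proliferation replicate 2 (0.53, adjusted p = 0.05572), 24 h replicate 3 (0.50, adjusted p = 0.05156) or 24 h replicate 4 (0.45, adjusted p = 0.07954).

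TNFAIP3 encodes a ubiquitin-editing enzyme that shuts down signalling upstream of the IkB kinase. In proliferation it was at 4.26, 3.53, 4.24 and 3.82 CPM in coculture, against 5.03, 5.83, 5.12 and 5.88 CPM in monoculture. At 24 h it was at 4.49, 5.77, 6.19 and 5.85 CPM in coculture, against 7.41, 9.03, 9.27 and 6.72 CPM in monoculture. At 72 h it was at 12.3, 32.8, 22.1 and 25.9 CPM in coculture, against 6.53, 6.26, 8.18 and 9.98 CPM in monoculture. No time had overlapping groups, and coculture was below monoculture until 24 h and above it at 72 h. The log2 fold change was -0.50 ± 0.23 in proliferation (edgeR adjusted p = 0.06522), -0.55 ± 0.21 at 24 h (adjusted p = 0.05195) and 1.62 ± 0.18 at 72 h (adjusted p = 9.095e-09). The proliferation difference passed in 4 of 15 alternative settings. The 24 h difference passed in 6 of 16, among them without monoculture replicate 4 (-0.62, adjusted p = 0.04026). In coculture TNFAIP3 rose by 2.06 on the log2 scale at 72 h over 24 h; in monoculture it rose by 0.58 over the first 24 h and then differed by -0.11 (adjusted p = 0.6778). The first step in coculture, 0.53 (adjusted p = 0.06568), passed in 4 of 16 settings, among them without coculture 24 h replicate 1 (0.61, adjusted p = 0.04629).

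NFKBIA, the other brake, encodes the IkB protein alpha that holds RELA dimers in the cytoplasm. It was at 24.9, 27.2, 25.4 and 20.7 CPM in coculture and 25.0, 24.1, 25.5 and 26.6 CPM in monoculture in proliferation, and at 22.8, 28.8, 26.8 and 28.8 CPM in coculture against 33.4, 34.4, 32.5 and 28.7 CPM in monoculture at 24 h. At 72 h it was at 36.6, 65.7, 52.5 and 56.3 CPM in coculture, against 48.5, 48.1, 45.8 and 56.5 CPM in monoculture. The groups overlapped at all 3 times, and at 72 h coculture replicate 1 lay below every monoculture library. The log2 fold change was -0.03 ± 0.12, then -0.27 ± 0.11 (edgeR adjusted p = 0.083), and 0.09 ± 0.10 at 72 h (adjusted p = 0.4858). Its direction at 72 h depended on single libraries: 0.23 without coculture replicate 1 (adjusted p = 0.02092) and -0.03 without coculture replicate 2. The 95% interval at 72 h was -0.12 to 0.30, below the 1.25 to 1.98 of TNFAIP3. NFKBIA rose between 24 h and 72 h in both cultures, by 0.98 in coculture and 0.62 in monoculture on the log2 scale.

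RELA encodes the subunit that activates transcription. It was at 79.4, 79.3, 79.6 and 75.5 CPM in coculture against 65.0, 62.3, 66.2 and 68.3 CPM in monoculture in proliferation. At 24 h it was at 81.2, 81.1, 80.5 and 77.7 CPM in coculture, against 74.0, 77.1, 82.9 and 73.7 CPM in monoculture. At 72 h it was at 94.9, 96.2, 93.3 and 94.4 CPM in coculture, against 86.1, 89.7, 82.0 and 82.98 CPM in monoculture. The groups were apart in proliferation and at 72 h and overlapped at 24 h. RELA was higher in coculture by 0.26 ± 0.042 on the log2 scale in proliferation (edgeR adjusted p = 4.295e-06) and by 0.15 ± 0.041 at 72 h (adjusted p = 0.002909). The 72 h value was 0.11 (adjusted p = 0.09288) without the 4 libraries richest in ribosomal RNA.

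NFKB1 encodes the precursor of the subunit that pairs with RELA in the classical pathway. It did not differ by the test in proliferation (34.8 ± 1.56 CPM in coculture, against 34.0 ± 2.45 CPM in monoculture; SD, n = 4) and at 24 h was at 40.5, 36.5, 39.5 and 37.9 CPM in coculture, against 41.6, 44.4, 47.1 and 40.6 CPM in monoculture (log2 fold change -0.17 ± 0.070, adjusted p = 0.06967). At 72 h it was at 39.0, 53.3, 46.3 and 50.3 CPM in coculture, against 33.5, 34.2, 36.4 and 38.9 CPM in monoculture. Every coculture library of 72 h was above every monoculture library, replicate 1 only just (log2 fold change 0.41 ± 0.071, edgeR adjusted p = 1.756e-05). NFKB2 encodes the precursor used by the alternative pathway. In proliferation its coculture libraries averaged 70.5 ± 2.83 CPM, against 59.4 ± 2.39 CPM for monoculture (SD, n = 4). At 24 h it was at 84.3, 91.0, 94.5 and 91.5 CPM in coculture, against 101, 119, 123 and 110 CPM in monoculture. At 72 h the values were 89.6, 126, 109 and 111 CPM in coculture, against 82.8, 80.3, 97.0 and 85.6 CPM in monoculture. NFKB2 was thus higher in coculture in proliferation (0.25 ± 0.074, adjusted p = 0.005048), lower at 24 h (-0.33 ± 0.071, adjusted p = 0.0009843) and higher again at 72 h (0.34 ± 0.072, adjusted p = 0.0002429), the last with overlapping groups. Between 24 h and 72 h NFKB1 and NFKB2 both rose in coculture (0.29 and 0.27 on the log2 scale) and both fell in monoculture (-0.29 and -0.39), where they had risen over the first 24 h (0.35 and 0.93). In lane 7 libraries alone the NFKB2 rise was 0.23 (adjusted p = 0.06539).

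**Figure D2:**
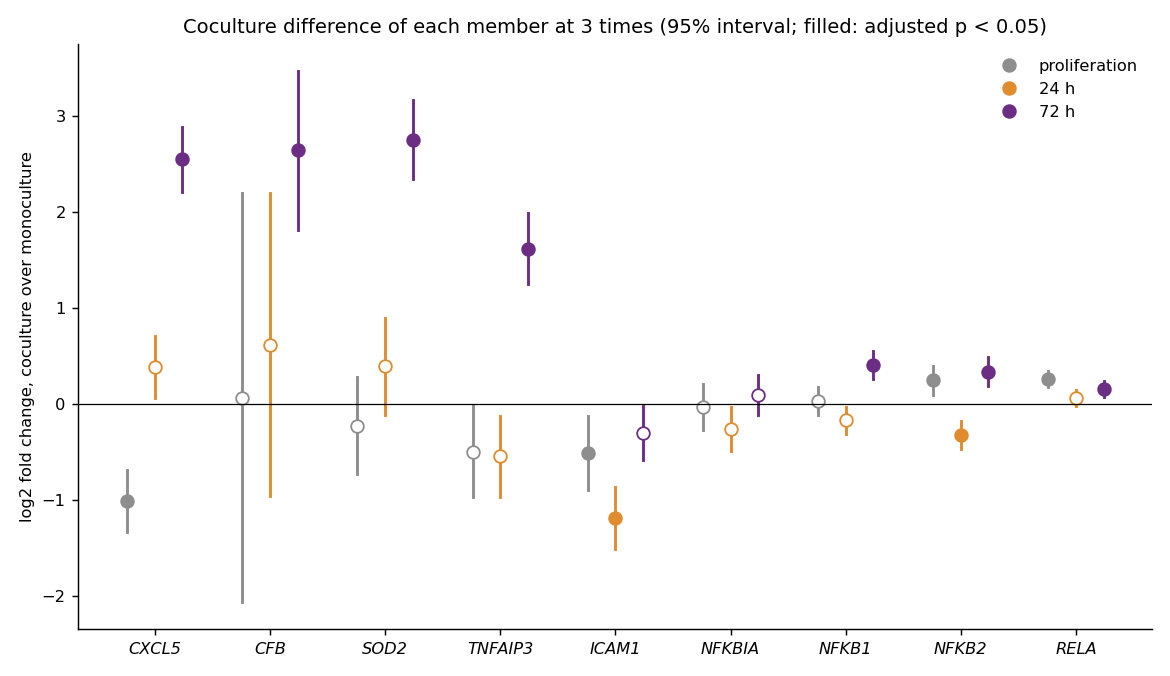
Log2 fold change of coculture over monoculture for each gene at proliferation (grey), 24 h (orange) and 72 h (purple), with 95% intervals; filled points have an adjusted p under 0.05. CXCL5, CFB, SOD2 and TNFAIP3 lie between 1.62 and 2.75 at 72 h, while ICAM1 lies below 0 at all 3 times.

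In proliferation 4 of the 9 genes were called, RELA and NFKB2 higher and CXCL5 and ICAM1 lower in coculture, against 59% of all genes called. At 24 h 2 were called, ICAM1 and NFKB2, both lower, against 23.8% of all genes. At 72 h 7 were called, all higher, against 50.5% of all genes called, 25.1% higher and 25.4% lower. As shares of 9, the counts in proliferation and at 24 h are at or below these backgrounds, and that at 72 h is above its own. Because the 9 were chosen with earlier results of these data known, no such count beside its background is a test of the group. The median log2 fold change of the 9 was -0.03, -0.17 and 0.41 at the 3 times, beside 0.0040, -0.0027 and -0.0014 for all genes. The test uses 1 spread per gene for all 6 groups, and several of these genes varied most at 72 h. For such genes a shared spread can overstate the error at 24 h and understate it at 72 h. Fitted on the 24 h groups alone, 7 passed, CXCL5 and SOD2 higher and ICAM1, NFKB2, TNFAIP3, NFKBIA and NFKB1 lower, against 22.4% of all genes. Adding lane as a term left 4 calls at 72 h (CXCL5, SOD2, TNFAIP3 and NFKB1, with 28.5% of all genes called). The rest were CFB at 2.81 (adjusted p = 0.05973), NFKB2 at 0.25 (adjusted p = 0.1321) and RELA at 0.19 (adjusted p = 0.05202). The lane term rests on the coculture libraries of 24 h, and in lane 6 these include replicate 2, with 4.07% ribosomal RNA.

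In the authors' deposited table of each time, 6 of the 9 genes had an adjusted p under 0.05 in proliferation, 7 at 24 h and 7 at 72 h, against 57.2%, 21.2% and 42.8% of all genes in the same tables. The log2 fold changes of the authors' deposited tables differed from those given here by 0.10 at most, for CFB in proliferation. The authors' SE at 72 h were larger for CFB (0.86 against 0.41 here), SOD2 (0.39 against 0.20), TNFAIP3 (0.33 against 0.18) and CXCL5 (0.30 against 0.16). At 24 h the authors' SE of these genes were instead smaller than those given here.

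Whether the coculture difference itself changed between times was tested as an interaction. From proliferation to 24 h it changed for 4 genes, against 50.5% of all genes: it became more positive for CXCL5 (log2 1.39 ± 0.22, edgeR adjusted p = 8.373e-06) and more negative for ICAM1 (-0.68), NFKB2 (-0.57) and RELA (-0.20). From 24 h to 72 h it became more positive for 6 genes, against 23.7% of all genes called and 12% called in that direction. These were SOD2 (2.36 ± 0.32, adjusted p = 1.973e-06), TNFAIP3 (2.17 ± 0.27), CXCL5 (2.16 ± 0.22), ICAM1 (0.88 ± 0.21), NFKB2 (0.66 ± 0.10) and NFKB1 (0.58 ± 0.100). From proliferation to 72 h it became more positive for CXCL5 (3.56), SOD2 (2.98), TNFAIP3 (2.12) and NFKB1 (0.38), against 62.3% of all genes called and 31.3% called in that direction. CFB missed both later tests (2.03, adjusted p = 0.1086, and 2.58, adjusted p = 0.05736) but passed them without monoculture 72 h replicate 3 (3.23, adjusted p = 0.001882, and 3.78, adjusted p = 0.00106) or coculture 72 h replicate 1 (2.32, adjusted p = 0.02893, and 2.87, adjusted p = 0.01409), and the second without coculture proliferation replicate 1 (3.03, adjusted p = 0.04187). The change for ICAM1 from proliferation to 24 h was lost without monoculture 24 h replicate 3 (-0.58, adjusted p = 0.0562) or coculture 24 h replicate 1 (-0.59, adjusted p = 0.05295), and that for RELA by library totals alone (-0.14, adjusted p = 0.106) or in lane 6 alone (-0.17, adjusted p = 0.06102). The change for NFKBIA from 24 h to 72 h was gained without coculture 72 h replicate 1 (0.50, adjusted p = 0.002054).

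Over time within coculture, 3 genes rose in the first 24 h (CXCL5, ICAM1 and NFKB2), against 43.2% of all genes called and 21% called higher. The rise of ICAM1 was not called with lane as a term (0.37, adjusted p = 0.2308) or by library totals alone (0.40, adjusted p = 0.07952). Between 24 h and 72 h all 9 rose, against 48.2% called and 24.4% called higher. Their rises ran from 0.24 for RELA to 4.31 for CFB on the log2 scale, with a median of 1.35. Within monoculture 6 genes rose and CXCL5 fell in the first 24 h, against 68.5% of all genes called. Between 24 h and 72 h CFB, ICAM1, NFKBIA and RELA rose and NFKB1 and NFKB2 fell, against 53.9% of all genes called. Within each culture both contrasts share the 24 h libraries. Scaling by library totals alone shifted the median of all genes by -0.19 for the first 24 h of monoculture, and TNFAIP3 (0.39), NFKBIA (0.16), NFKB1 (0.16) and RELA (0.04) were then not called, nor was RELA at 72 h over 24 h (0.02). That scaling also moved the median by 0.13 at 72 h in coculture against monoculture, where 75.3% of all called genes were then higher instead of 49.7% and 7 members were called.

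The libraries of 72 h differed widely for the inflammatory genes. In coculture the coefficient of variation over 4 libraries was 58.3% for CFB, 43.8% for SOD2, 36.7% for TNFAIP3 and 33.2% for CXCL5, against a median of 5.96% for all genes in that group, while RELA varied by 1.27%. Coculture replicate 1 was the lowest library for 8 of the 9 genes and replicate 2 the highest for 8 of 9. How often that order held over all genes was not counted, so it cannot be read as particular to these genes. In monoculture CFB varied most (113%), and replicate 3 was the highest library for CXCL5, CFB, SOD2 and NFKB2 and the lowest for ICAM1, NFKBIA and RELA. Coculture replicate 1 and monoculture replicates 3 and 4 were the 72 h libraries with over 1.5% ribosomal RNA; the part of RNA quality in the levels of these genes was not tested. Without the 4 ribosomal RNA-rich libraries CXCL5, CFB, SOD2, TNFAIP3, NFKB1 and NFKB2 were still called higher in coculture at 72 h. NFKBIA (0.27, adjusted p = 0.01604) and ICAM1 (-0.34, adjusted p = 0.02915) were called as well. That setting kept only replicates 1 and 2 of monoculture at 72 h.

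**Figure D3:**
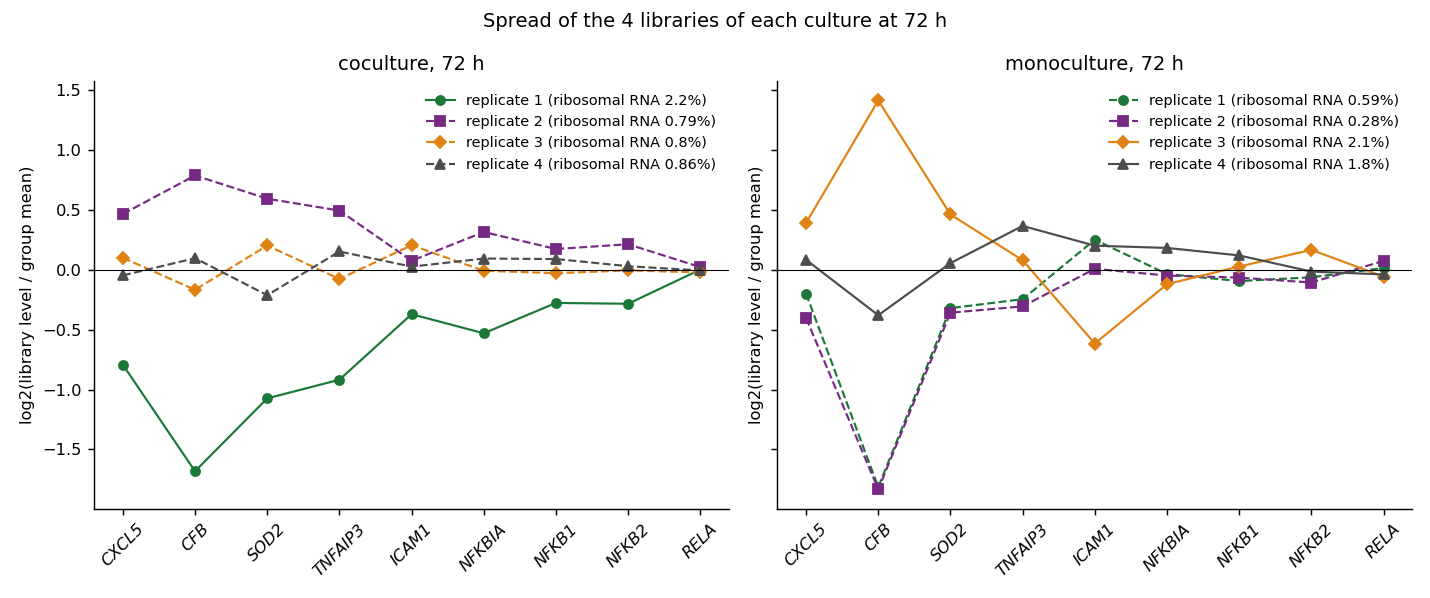
Level of each gene in each 72 h library relative to its group mean, as a log2 ratio; coculture is on the left and monoculture on the right, and solid lines mark libraries with over 1.5% of counts in ribosomal RNA, dashed lines the others. Coculture replicate 1 runs lowest for 8 of 9 genes, and monoculture replicate 3 stands above its group for CFB (23.6 CPM).

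Of the wider pathway, 90 symbols in 6 lists matched 67 genes of the table, TRAF3 and TNFAIP2 through 2 entries each. TNF, IL1A, IL1B and CXCL8 were not among them and are not analysed here. In proliferation 24 were higher and 19 lower in coculture (35.8% and 28.4% of 67, beside 30.3% and 28.7% of all genes). At 24 h 7 were higher and 16 lower (10.4% and 23.9%, beside 11.5% and 12.2%). At 72 h 27 were higher and 11 lower (40.3% and 16.4%, beside 25.1% and 25.4%). The median log2 fold change of the 67 was 0.10, -0.04 and 0.10. The lists too were chosen with earlier results of these data known, so these shares describe them and are not a test. With lane as a term the 72 h counts were 16 higher and 7 lower, where 28.5% of all genes were called and 51.7% of those were higher. By library totals alone they were 36 and 6, where 52.6% of all genes were called and 75.3% of those were higher.

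Of 13 other feedback genes, counting both entries of TNFAIP2, 8 were higher and 3 lower in coculture at 72 h. In proliferation 2 had been higher and 6 lower, and at 24 h 0 higher and 1 lower. For this and the following lists, the shares of all genes were 25.1% higher and 25.4% lower at 72 h. They were 30.3% and 28.7% in proliferation, and 11.5% and 12.2% at 24 h. TNIP1, a partner of the TNFAIP3 protein, was higher in coculture by 0.88 ± 0.076 at 72 h (log2, SE, edgeR adjusted p = 5.144e-11). It was at 132, 209, 171 and 175 CPM in coculture against 89.8, 86.3, 96.5 and 102 CPM in monoculture. ZC3H12A, an RNase that degrades inflammatory transcripts, was higher in coculture by 0.63 at 72 h, whereas TNFAIP8 (-0.48) and TNIP2 (-0.31) were lower. In proliferation TNIP1 was already higher (0.46), and TAX1BP1, an adaptor of TNFAIP3, was lower (-0.56).

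Among the other Rel and IkB proteins, 4 of 6 were higher in proliferation, 1 was higher and 2 lower at 24 h, and 3 were higher and 1 lower at 72 h. BCL3, a nuclear IkB protein that binds NFKB1 and NFKB2 products, was higher in coculture at each time (0.64, 0.61 and 0.40 on the log2 scale). RELB, the partner of NFKB2 in the alternative pathway, was lower at 24 h (-0.53) and higher at 72 h (0.33), with 16.9 ± 2.48 CPM in coculture, against 24.1 ± 2.37 CPM for monoculture, at 24 h (SD, n = 4). NFKBID, another nuclear IkB protein, was lower at 72 h (-1.02, adjusted p = 1.357e-05), with overlapping groups of 2.04 to 3.02 CPM in coculture and 2.96 to 6.72 in monoculture. It met the 5 CPM minimum for a named gene only through the monoculture mean of 72 h (5.09 CPM).

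Of the cytokine and chemokine symbols 6 were measured, and 2 of these were higher and 1 lower at 72 h. IL6, a cytokine gene with NF-kB sites in its promoter in human and mouse, was at 54.8, 197, 145 and 114 CPM in coculture, against 21.1, 16.02, 15.5 and 28.2 CPM in monoculture (log2 2.67 ± 0.22, edgeR adjusted p = 1.165e-11). CCL2, a monocyte-attracting chemokine, was at 139, 287, 233 and 242 CPM in coculture, against 63.5, 58.0, 60.5 and 104 CPM in monoculture (1.66 ± 0.14). In both genes the groups were apart, and coculture replicate 1 was again the lowest and replicate 2 the highest coculture library. LIF, a cytokine of the IL6 family, was lower (-0.88), and CXCL3, a chemokine related to CXCL5, did not differ at 72 h by the test (0.08 ± 0.17) after being lower in proliferation (-0.86, adjusted p = 0.001356). At 24 h CSF1, the macrophage growth factor, was lower (-0.71).

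In the remaining lists the calls went both ways. Of 7 other targets, 3 were higher and 3 lower in coculture at 72 h. C3, the complement protein to which factor B binds, was higher by 1.84 and PTGS2 and IRF1 by 0.64 and 0.94. BCL2L1 (-0.69), GADD45B (-0.62) and JUNB (-0.46) were lower. C3 was also higher at 24 h (0.84), when CD44, a hyaluronan receptor, was lower (-0.61). GADD45B, a stress response gene, was higher in proliferation (0.50). Of 24 receptors and adaptors, 8 were higher and 3 lower at 72 h, after 3 higher and 7 lower at 24 h and 9 higher and 6 lower in proliferation. BIRC3, a ubiquitin ligase at TNF receptors, was lower in proliferation (-0.80) and at 24 h (-0.48) and higher at 72 h (0.49). IL1R1, the receptor for interleukin 1, was higher at 24 h (0.36) and 72 h (0.62), and CD40, a receptor of the TNF family, was lower at 24 h (-0.70) and higher at 72 h (0.53). Of 11 kinases and their partners, 5 were higher and 5 lower in proliferation, 2 higher and 0 lower at 24 h, and 3 higher and 0 lower at 72 h; IKBKB, CHUK and IKBKG, the parts of the IkB kinase complex, were not called at 72 h (0.04, 0.11 and -0.10).

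**Figure D4:**
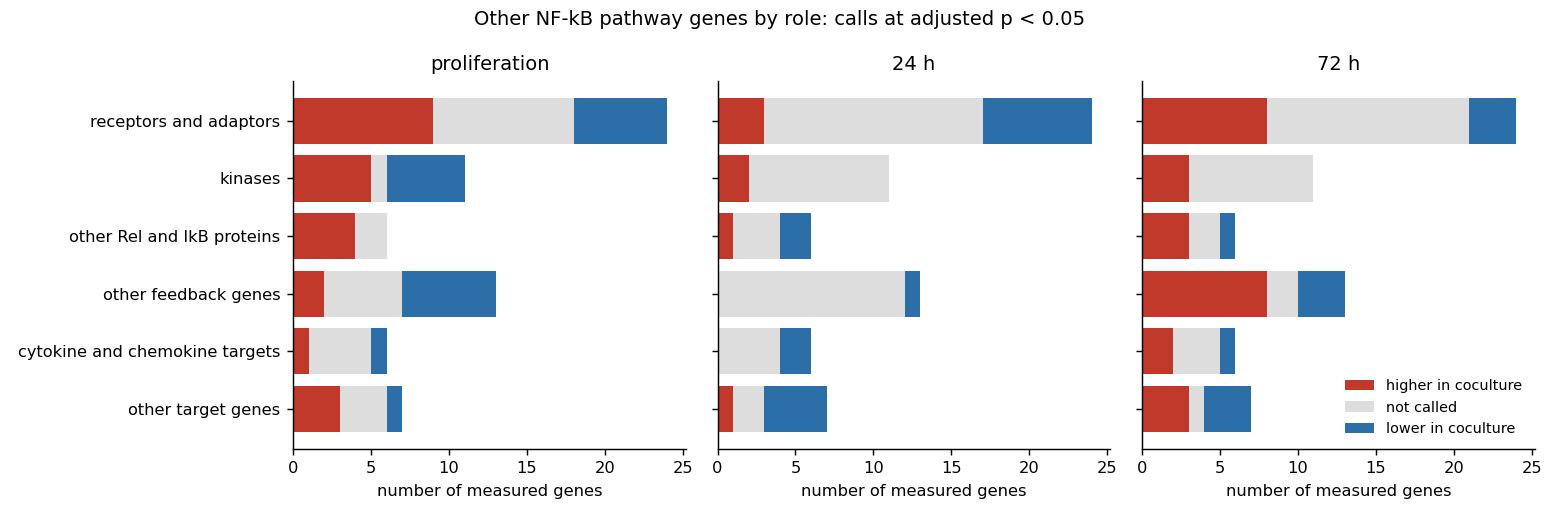
Number of measured genes of each pathway list that were higher in coculture (red), not called (grey) or lower in coculture (blue) at proliferation, 24 h and 72 h, at an adjusted p under 0.05. Among the other feedback genes 8 of 13 were higher and 3 lower at 72 h, beside 25.1% and 25.4% of all genes. At 24 h all but 1 were not called, where 23.8% of all genes were called.

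The genes nearest in pattern to each member were found by the root mean square difference of the 6 group means of log2 CPM after centring. For CFB, whose means spanned 5.33 log2 units, these were C3 (0.48) and IL6 (0.71). For CXCL5, with a span of 2.503, they were GBP1 (0.34) and CCL2 (0.38), and for SOD2, with 3.19, NCALD (0.39) and RND1 (0.39). ARNTL2 (0.21) and CYP3A74 (0.25) were nearest to TNFAIP3, and FZD1 (0.27) and RASL11B (0.30) to ICAM1. IER3 (0.069) and NID2 (0.089) were nearest to NFKBIA, YIPF1 (0.061) to NFKB1, BBS1 (0.096) and SIDT2 (0.10) to NFKB2, and SLC25A29 (0.019) and BORCS8 (0.023) to RELA. Small values were easier to reach for members whose means spanned less, such as NFKB1 (0.47) and RELA (0.53).

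CD68 was the only gene of the 10 on the leukocyte list that was listed, at 0.95 to 1.57 CPM in coculture and 0.51 to 1.67 CPM in monoculture at 72 h. VWF, the only one of 6 on the endothelial list, was at 3.38 to 4.35 CPM in coculture and 2.08 to 2.51 CPM in monoculture at 72 h. The 7 fibroblast markers summed to 82894 to 84911 CPM in coculture and 87321 to 98488 CPM in monoculture at 72 h, and to 40446 to 41675 CPM in coculture and 33312 to 35937 CPM in monoculture in proliferation. COL1A1 made up most of each sum (mean 53140 CPM in coculture and 61551 CPM in monoculture at 72 h), and the markers differed in direction. At 72 h the coculture means of COL1A1, PDGFRB and THY1 were lower. Those of COL3A1, LUM, DCN and PDGFRA were higher (PDGFRA 121 against 46.3 CPM). In proliferation each of these directions was the reverse. DES and ITGA7 summed to 113 to 142 CPM in coculture and 288 to 318 CPM in monoculture at 72 h, to 143 to 170 CPM in coculture and 220 to 243 CPM in monoculture at 24 h, and to 150 to 164 CPM in coculture and 104 to 109 CPM in monoculture in proliferation. Both genes had lower coculture means at 72 h. At 24 h ITGA7 averaged 57.9 CPM in coculture against 131 in monoculture, but DES 100 against 101 CPM. In proliferation DES averaged 125 against 72.1 CPM, but ITGA7 31.2 against 35.1 CPM. The part of these shifts in the levels of the 9 genes was not tested.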

How the data were processed

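The sequencing libraries used 400 ng of RNA and a Vazyme VAHTS kit, per the labels. A table of counts was deposited, whole numbers of reads per gene; FastQC, STAR, RSEM and DESeq2 are named without versions in the submitters' processing notes, so the counts may be rounded estimates. Per the file headers, 3 deposited tables of the authors' own comparisons hold a mean normalised signal, a log2 fold change with its standard error, a test statistic (score), and p-values. Of 36 library columns 24 match a label; the other 12 were not used. Sequences of the genes are not used here.

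In R 4.3.3 with edgeR 4.0.16, TMM scaling and a quasi-likelihood fit of 1 mean per group over all 24 libraries (18 residual degrees of freedom) gave 10 comparisons, adjusted by the Benjamini-Hochberg method over 11937 genes. Standard errors were taken as the size of the change divided by the root of the F statistic. No gene failed the count filter. Intervals cover 95%.

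The members and lists were chosen with earlier results of these data known. All 9 members are named; of the lists, the 3 called genes with the largest rise and fall per coculture comparison whose higher group averaged 5 CPM or more. Of the 2 genes nearest in pattern to each member, 1 is not reported here. Other list genes with values in the text were chosen after their values were seen. Alternatives were library totals alone, DESeq2 1.42.0, leaving out genes under 5 CPM, only the groups compared, a replicate block, lane, leaving out the ribosomal RNA-rich libraries, and leaving out each library.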

Additional observations from a re-analysis of the deposited data

Results flagged for a closer look

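In 54 sets of 4 libraries, 1 per gene and group, 2 held a library far from the other 3; chance alone gives about 1 in 20. CXCL5 was at 202 CPM in monoculture proliferation replicate 2, against 158 to 163 CPM in the other 3 libraries. RELA was at 75.5 CPM in coculture proliferation replicate 4, against 79.3 to 79.6 CPM in the others.

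The coculture difference changed between times, by edgeR's interaction test, in 14 cases. Of the 9 genes, 4 were called from proliferation to 24 h, beside 50.5% of all genes. From 24 h to 72 h 6 were called, beside 23.7%, and from proliferation to 72 h 4, beside 62.3%. From proliferation to 24 h the change was 1.39 for CXCL5, -0.68 for ICAM1, -0.57 for NFKB2 and -0.20 for RELA on the log2 scale. From 24 h to 72 h it was 2.16 for CXCL5, 2.36 for SOD2, 2.17 for TNFAIP3, 0.88 for ICAM1, 0.58 for NFKB1 and 0.66 for NFKB2. From proliferation to 72 h it was 3.56 for CXCL5, 2.98 for SOD2, 2.12 for TNFAIP3 and 0.38 for NFKB1.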

How the results depend on the processing

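For the number of genes called, these settings moved a count by over 1.5 times. In coculture against monoculture at 24 h (2 calls), 7 were called with only its groups fitted, 6 without the ribosomal RNA-rich libraries (2 higher, 4 lower) and 4 in lane 6 alone, against 22.4%, 23.7% and 14.6% of all genes. At 24 h over proliferation in coculture (3), 7 were called with only its groups and 7 without the ribosomal RNA-rich libraries, against 45.7% and 42.7% of all genes. The lane term left 4 of 7 at 72 h (28.5% of all genes), library totals alone left 3 of 7 at 24 h over proliferation in monoculture (69.3%), and for the change from proliferation to 72 h (4) there were 8 without the ribosomal RNA-rich libraries (60.1%).

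Directions turned for values near 0. By library totals alone these were CFB (-0.0023) and NFKB1 (-0.039) in proliferation, TNFAIP3 (0.014) in the change to 24 h, RELA (0.090) in the change from proliferation to 72 h, and NFKBIA (-0.0050) and RELA (-0.094) at 24 h over proliferation in coculture. With the lane term they were NFKBIA at 72 h (-0.014) and ICAM1 in the change from proliferation to 72 h (-0.084). Leaving out single libraries turned CFB in proliferation (range -0.39 to 0.43), NFKBIA in proliferation (-0.10 to 0.038) and at 72 h (-0.028 to 0.23), and TNFAIP3 in the change to 24 h (-0.13 to 0.034). Over all settings and genes 1503 values kept direction and call, 68 gained a call, 23 lost one and 17 turned.

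Library totals alone moved 7 called values by over 1.5 times. With the call kept these were RELA at 72 h (0.28), NFKB1 in the change from proliferation to 72 h (0.58) and NFKB2 at 24 h over proliferation in coculture (0.23). With the call lost they were NFKBIA (0.16), NFKB1 (0.16) and RELA (0.04) at 24 h over proliferation in monoculture and RELA at 72 h over 24 h in monoculture (0.02). The shift of the median of all genes under that scaling was 0.14 for the change from 24 h to 72 h, 0.21 for that from proliferation to 72 h, -0.13 for 24 h over proliferation in coculture and -0.13 for 72 h over 24 h in monoculture. Replicate numbers did not pair the libraries: deviations of same-numbered libraries correlated at -0.14 to 0.12, and only some correlated best with their own number. With the replicate block 85 of 90 values kept their call and 5 gained one, among them TNFAIP3 in proliferation (-0.50, adjusted p = 0.03911); no count moved by over 1.5 times. The lane term rests on 2 against 2 coculture libraries of 24 h. Of the 2 in lane 6, 1 is replicate 2, the library with 4.07% ribosomal RNA, which the lane 6 setting also keeps. The part of that library in the lane term was not tested. Depth limits CFB and TNFAIP3 most.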
